A study of Homo sapiens with 18 samples.

Results

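The 10 genes described here encode secreted matrix proteins of the epithelial basement membrane and of the stroma that adjoins it: the type IV collagen chains COL4A1, COL4A2, COL4A5 and COL4A6, perlecan (HSPG2), the collagens COL7A1 and COL12A1, tenascin C (TNC), SPARC and reelin (RELN). They were chosen by name, with earlier results of these data known, and all 10 were found among the 19901 genes of the raw count table. RNA sequencing was carried out on 3 established head and neck squamous cell carcinoma lines, with 3 libraries of untreated control cells and 3 libraries of cells given 50 ng/ml recombinant hepatocyte growth factor (HGF) for 16 h in each line, 18 libraries in all. SCC-9 is a tongue carcinoma line and FaDu a hypopharyngeal one, both from primary tumors, whereas Detroit 562 came from a pharyngeal carcinoma that had spread. The labels name no transgene or engineered deletion, and each group represents 1 line. SCC-9 was grown in a medium with hydrocortisone and the other lines in MEM-α without it, so line and medium cannot be told apart in comparisons with SCC-9. The series record gives 48 h of treatment where the sample records give 16 h.

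HGF is a stromal growth factor that binds the receptor tyrosine kinase MET on epithelial cells and makes them scatter, move and invade. The basement membrane is the sheet beneath every epithelium, built from networks of laminin and type IV collagen that are joined by linkers such as nidogen and perlecan. Type IV collagen chains leave the cell as trimers: COL4A1 and COL4A2 chains form the trimer found in nearly all basement membranes, and COL4A5 and COL4A6 chains share a trimer found in stratified epithelia. COL7A1 chains form the anchoring fibrils that tie the epithelial basement membrane to the connective tissue below, and COL12A1 encodes a collagen that decorates the surface of fibrillar collagen bundles. TNC, SPARC and RELN encode secreted glycoproteins that alter how cells attach to matrix or signal to them: tenascin C is abundant at wound edges and in tumor stroma, SPARC binds collagens including type IV, and reelin guides migrating neurons through the receptors VLDLR and LRP8.

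The type IV collagen genes lie in head-to-head pairs, so that each pair shares the DNA between its start sites. COL4A1 (ENSG00000187498.14) lies on the minus strand at chr13:110148963-110307149 and COL4A2 (ENSG00000134871.17) on the plus strand at chr13:110305812-110513027 (GRCh38, GENCODE 28 gene extents in the count table). Their annotated extents overlapped by 1338 bp on opposite strands, and reads were assigned by strand. COL4A6 (ENSG00000197565.15, minus strand, chrX:108155607-108439497) and COL4A5 (ENSG00000188153.13, plus strand, chrX:108439844-108697545) stand in the same arrangement on the X chromosome. In RefSeq (GRCh38.p14) the start sites of COL4A1 and COL4A2 were 126 bases apart, and the start site of COL4A5 was 379 bases from the nearer of the start sites of COL4A6 and 1415 bases from the other. The stretches below are printed 5′ to 3′ on the strand of the gene named last. They are shown because the head-to-head pairs share a start region, and because TNC and COL7A1 had the largest called responses to HGF in each direction in Detroit 562. Capitals mark matches, on either strand, to GGGCGG (the GC box bound by SP1-type factors), CCAAT (the CCAAT box) and TATAAA (the TATA box).
COL4A1 to COL4A2, chr13:110307158-110307257, plus strand: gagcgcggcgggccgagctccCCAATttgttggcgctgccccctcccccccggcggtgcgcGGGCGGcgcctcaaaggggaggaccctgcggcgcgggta
COL4A5, chrX:108439588-108439837, plus strand: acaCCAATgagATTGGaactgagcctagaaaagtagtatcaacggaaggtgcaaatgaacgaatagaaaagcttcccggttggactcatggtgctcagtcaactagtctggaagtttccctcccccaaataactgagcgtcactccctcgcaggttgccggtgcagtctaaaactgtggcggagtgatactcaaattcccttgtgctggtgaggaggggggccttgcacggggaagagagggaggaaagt
TNC, chr9:115118208-115118407, minus strand: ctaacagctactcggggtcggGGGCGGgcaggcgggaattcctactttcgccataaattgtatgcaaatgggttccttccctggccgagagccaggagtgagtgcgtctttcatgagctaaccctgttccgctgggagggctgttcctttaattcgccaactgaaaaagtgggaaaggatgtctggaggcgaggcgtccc
COL7A1, chr3:48595330-48595579, minus strand: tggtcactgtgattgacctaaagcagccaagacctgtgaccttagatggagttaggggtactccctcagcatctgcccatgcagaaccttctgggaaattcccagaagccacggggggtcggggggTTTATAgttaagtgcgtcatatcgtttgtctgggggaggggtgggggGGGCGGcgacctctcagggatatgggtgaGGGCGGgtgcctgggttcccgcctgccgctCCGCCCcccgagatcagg

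The letters of these windows differed between the head-to-head pairs. In the 250 bases upstream of each RefSeq start site, COL4A1 held 2 matches to the GC box and COL4A2 held 1, each gene held 1 match to the CCAAT box, and the windows had GC contents of 77.6% and 78.8%. The COL4A5 window held 2 matches to the CCAAT box and none to the GC box at a GC content of 51.2%, and the window of the nearer COL4A6 start site held 3 matches to the CCAAT box. The windows of a pair overlap, so some matches are the same bases counted for both genes. The CCAAT match of COL4A1 is that of COL4A2, and 1 GC box match is also shared by these genes. Both CCAAT matches of COL4A5 are among the 3 of COL4A6. Among 35116 RefSeq promoters of the same length, 42.6% held the GC box, 32.0% the CCAAT box and 10.7% the TATA box. COL7A1 was the only member whose window held the TATA box, on the opposite strand, and it held 3 matches to the GC box. No member window held TGANTCA, the site of AP-1 factors (6.57% of promoters), or CCGGAAGT, a site of ETS factors (3.42%), on either strand, which says only that these letters were not in these windows.

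The libraries held 35304770 to 44003970 counts each, with a median of 40138919. All 10 squamous epithelial markers were at or above 1 CPM (counts per 1000000 counts of a library after TMM scaling) in every group. Of 9 fibroblast markers, 2 reached 1 CPM in untreated Detroit 562 cells (COL1A1 and COL1A2), 1 in FaDu and 4 in SCC-9, with summed levels of 30.3 to 54.6 CPM in the untreated and 15.4 to 27.8 CPM in the HGF-treated Detroit 562 libraries, 3.70 to 7.01 CPM in FaDu, and 126 to 140 CPM in untreated SCC-9 libraries. PDGFRB was at 0 in Detroit 562 and LUM at 0 in FaDu. Summed endothelial markers reached at most 9.58 CPM. Summed leukocyte markers were at 8.08 to 10.0 CPM in untreated SCC-9, 4.41 to 6.18 CPM in untreated FaDu and at most 0.296 CPM in untreated Detroit 562 libraries. Replicate numbers were taken to pair the libraries, so values are given without and, where it changes a call, with a block for the replicate number. A gene is called where its edgeR quasi-likelihood p, adjusted over the 15475 genes tested by Benjamini-Hochberg, is below 0.1 and its log2 fold change is 0.4 or more in either direction. All 10 members passed the filter on low counts, but SPARC reached 10 counts in 0 of 6 Detroit 562 libraries, 2 of 6 FaDu libraries and 6 of 6 SCC-9 libraries, and RELN in 6, 5 and 0 of 6.

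Untreated cells of the lines differed widely in the level of the 10 genes, with COL7A1 at the head of the order in each line and TNC, SPARC and HSPG2 setting the lines apart. To compare genes with each other, CPM were divided by the length of the union of a gene's exons in kilobases (CPM per kb). Because reads over whole gene extents were counted, introns included, these levels may hold some unspliced RNA. In untreated Detroit 562 cells the mean level was 13.1 ± 1.21 CPM per kb (SD, n = 3) for COL7A1, followed by COL4A5 at 9.92 ± 0.946, HSPG2 at 8.74 ± 1.34, COL4A6 at 8.06 ± 0.963 and COL4A2 at 6.71 ± 0.577. The ranges of neighbors in this run from COL4A5 to COL4A2 overlapped. COL4A1 (3.13 ± 0.207) and COL12A1 (3.08 ± 0.594) could not be ordered either, TNC was at 1.36 ± 0.197, and RELN and SPARC were at most 0.035 CPM per kb in each library.

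In untreated FaDu cells COL7A1 was at 12.5 ± 4.26 CPM per kb, and COL12A1 came next at 4.86 ± 1.74, with a range that overlapped that of COL4A2 at 3.45 ± 0.398. COL4A5 was at 2.43 ± 0.204 and COL4A1 at 1.75 ± 0.302, while the range of HSPG2 (0.709 ± 0.200) overlapped those of both its neighbors, COL4A6 (0.885 ± 0.10) and TNC (0.633 ± 0.190). In untreated SCC-9 cells COL7A1 was at 25.9 ± 7.72 CPM per kb and overlapped TNC at 17.6 ± 0.911, ahead of COL4A2 at 13.4 ± 1.22, SPARC at 10.7 ± 1.75 and COL12A1 at 7.97 ± 0.946. The ranges of COL4A2 and SPARC overlapped as well. SCC-9 thus combined high TNC and SPARC with the lowest RELN of the lines. Dividing by the longest transcript in place of the union of exons put COL4A2 first in Detroit 562 and SCC-9, and left COL7A1 first in FaDu.

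**Figure D1:**
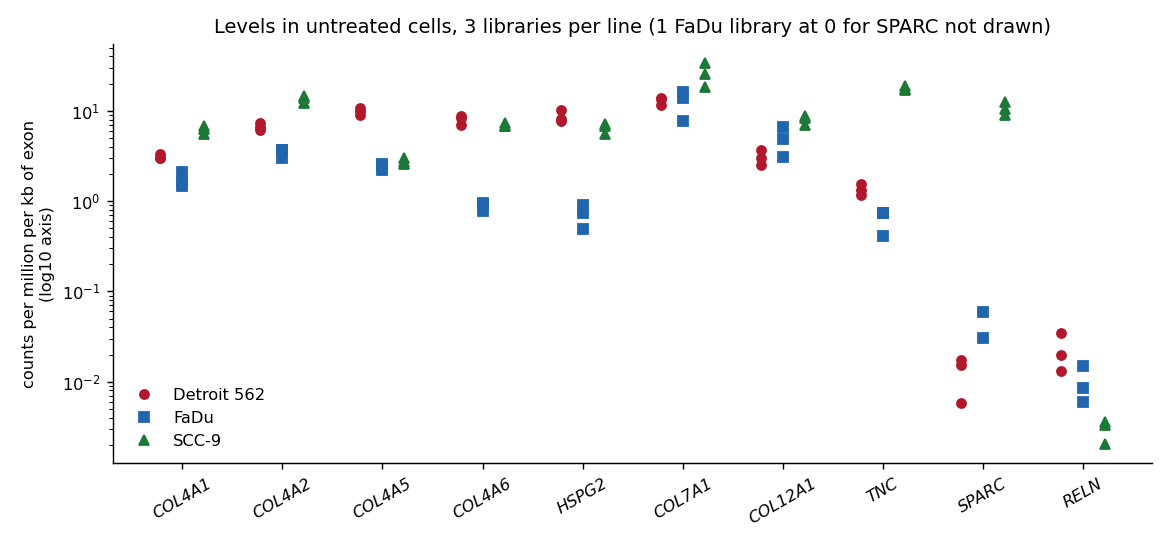
Level of each gene in the 3 untreated libraries of Detroit 562 (red circles), FaDu (blue squares) and SCC-9 (green triangles), in CPM per kb of exon on a log10 axis. COL7A1 is the highest gene by its mean in every line, TNC and SPARC are far higher in SCC-9 than in the other lines, and COL4A6 and HSPG2 are lowest in FaDu.

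Tested gene by gene across lines, untreated Detroit 562 and FaDu cells differed in 8 of the 10 genes, where 61% of all genes were called. In Detroit 562, 7 members were higher (31.2% of all genes) and 1 lower (29.8%). COL4A6 was 9.11-fold and HSPG2 12.3-fold higher in Detroit 562 (log2 fold changes 3.19 ± 0.151 and 3.62 ± 0.256, SE, adjusted p 1e-11 and 1.35e-09, edgeR). COL4A5 was 4.09-fold higher, and COL4A1, COL4A2, TNC and RELN were higher by 0.84 to 1.20 on the log2 scale. COL12A1 alone was lower in Detroit 562 (log2 fold change -0.66 ± 0.26, adjusted p = 0.0319, edgeR), and this call was lost without untreated replicate 3 of either line. COL7A1 (0.07 ± 0.279) and SPARC (-1.14 ± 0.927) were not called.

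Against SCC-9, untreated Detroit 562 cells differed in 9 of the 10 genes (65.4% of all genes called) and untreated FaDu cells also in 9 (64.2%). In Detroit 562, 3 members were higher (31.4% of all genes) and 6 lower (33.9%), and in FaDu 1 was higher (30.7%) and 8 lower (33.5%). TNC was 12.9-fold lower in Detroit 562 and 27.8-fold lower in FaDu than in SCC-9 (log2 fold changes -3.69 ± 0.191 and -4.80 ± 0.204, adjusted p 2.08e-11 and 2.3e-12, edgeR). COL4A1 and COL4A2 were lower by 0.99 and 1.00 on the log2 scale in Detroit 562, and 3.55-fold and 3.89-fold lower in FaDu. COL4A5 was 3.6-fold higher in Detroit 562 than in SCC-9, while COL4A6 was not called there (0.20 ± 0.135). FaDu and SCC-9 differed the other way: COL4A6 was 7.95-fold lower in FaDu and COL4A5 was not called (-0.18 ± 0.131). The call for COL12A1 between FaDu and SCC-9 was lost in 1 of 6 fits that left out a library, untreated FaDu replicate 1 (adjusted p = 0.102, edgeR). The call for HSPG2 between Detroit 562 and SCC-9 (log2 fold change 0.44 ± 0.227, adjusted p = 0.0909, edgeR) was lost in 4 of 6 such fits.

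HGF stimulation of Detroit 562 cells was followed by higher COL4A1 and TNC and by lower COL7A1, while no member was called in FaDu or SCC-9 without the block. RELN was also called higher in Detroit 562, at 20 to 53 counts per library, but lost this call in 5 of 6 fits that left out a library. Bulk RNA does not tell a change in the number of expressing cells from a change in RNA per cell. The count of 4 called members of 10 in Detroit 562 stood beside 17.9% of all genes (6.16% higher and 11.7% lower). The members were chosen with earlier results of these data known, so their counts beside all genes are descriptive only. With the replicate block, 7 members were called in Detroit 562 beside 21.5% of all genes, 4 of them higher (7.13%) and 3 lower (14.4%). FaDu then had 2 called, COL12A1 and TNC, both higher, beside 5.6% of all genes (2% higher), and SCC-9 had 0 beside 1.97%. In FaDu without the block 0.0258% of all genes were called and 1247 genes had an unadjusted p below 0.05. In SCC-9 without the block 0% were called, and 641 genes had an unadjusted p below 0.05. Groups did not overlap for 4 higher and 3 lower members in Detroit 562 (18.1% and 20.1% of all genes, 38.2% together), for 0 members in FaDu (9.41%) and for 0 in SCC-9 (17.4%). All 3 pairs moved one way for 8 members in Detroit 562 (62.8% of all genes), 4 in FaDu (43.3%) and 6 in SCC-9 (48.5%). The median log2 fold change over the members was -0.04 for Detroit 562, 0.21 for FaDu and 0.05 for SCC-9, beside -0.01, 0.00 and 0.00 over every gene tested.

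**Figure D2:**
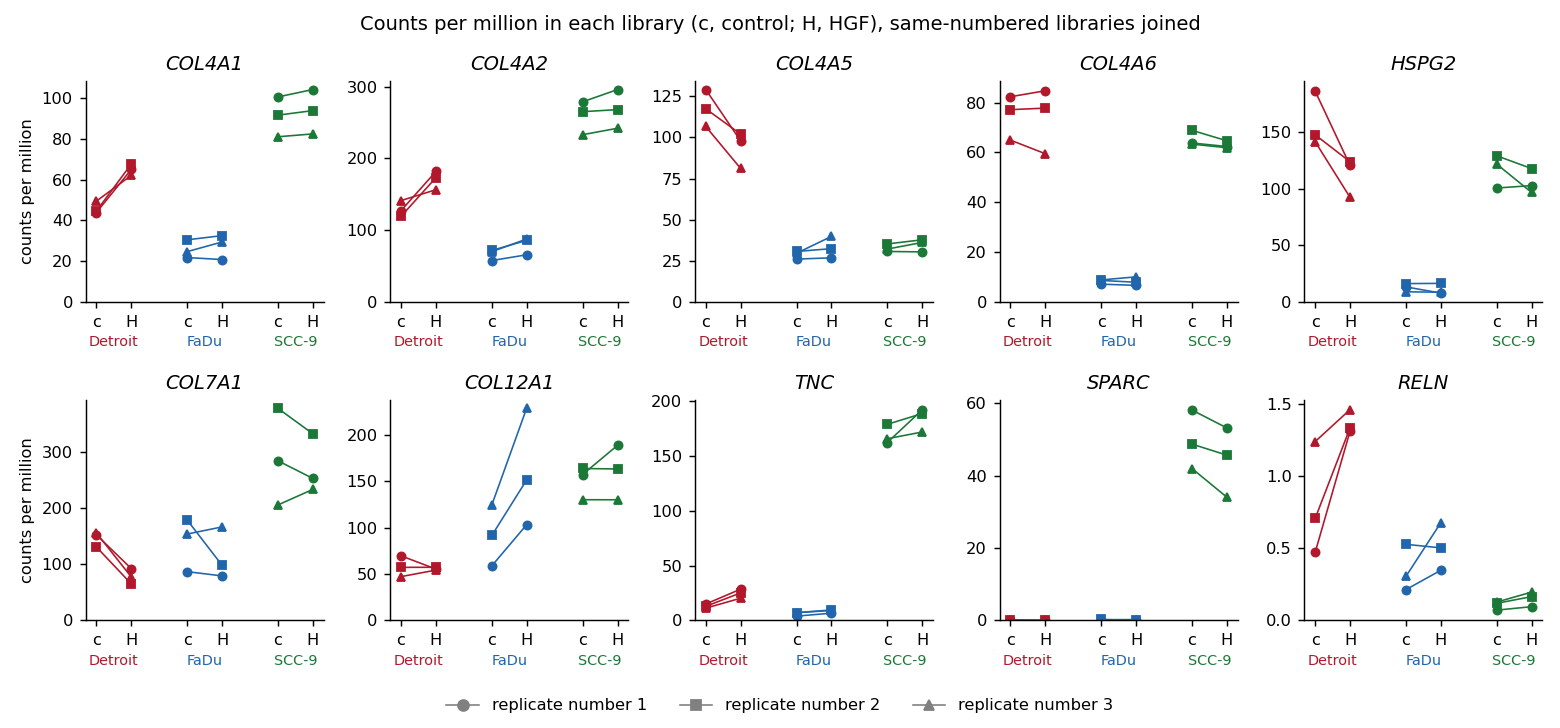
Level of each of the 10 genes in every library, in CPM on a linear axis that starts at 0, with untreated (c) and HGF-treated (H) libraries of the same replicate number joined and each line in its own color. In Detroit 562, TNC, COL4A1, COL4A2 and RELN are higher and COL7A1, COL4A5 and HSPG2 lower after HGF in every joined pair, and COL12A1 is higher in all 3 FaDu pairs from different starting levels.

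COL4A1 and COL4A2, the chains of the trimer found in nearly all basement membranes, were higher in every HGF-treated Detroit 562 library than in every untreated one. COL4A1 measured 43.8, 44.5 and 49.4 CPM in the untreated libraries and 64.9, 67.6 and 62.0 CPM after HGF. It rose by a log2 fold change of 0.50 ± 0.144 (SE, adjusted p = 0.0199, edgeR), or 1.41-fold, and the call held on leaving out each library. COL4A2 measured 127, 119 and 141 CPM in untreated libraries and 182, 173 and 156 CPM after HGF, again without overlap. Its log2 fold change of 0.3996 ± 0.116 (adjusted p = 0.0206, edgeR) lay just under the minimum of 0.4, so it was not called, and with the replicate block it was called at 0.4007 (adjusted p = 0.000116). Without the block the estimates of COL4A1 and COL4A2 differed by less than either standard error. With the block, at 0.4999 ± 0.0615 and 0.4007 ± 0.0623, they differed by more than either.

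The estimates for the same chains were smaller in the other lines. In FaDu, COL4A1 measured 21.8, 30.5 and 24.7 CPM untreated and 20.8, 32.5 and 29.4 CPM after HGF, and COL4A2 went from 57.8, 71.8 and 70.1 to 65.8, 85.9 and 87.8 CPM. COL4A2 was higher in 3 of 3 FaDu pairs (log2 fold change 0.26 ± 0.117, adjusted p = 0.609, edgeR, and 0.0186 with the replicate block, still under the minimum change). In SCC-9, COL4A1 had 100, 91.5 and 80.9 CPM untreated and 104, 93.8 and 82.3 CPM after HGF, and COL4A2 had 279, 265 and 233 CPM untreated and 296, 268 and 242 CPM after HGF. Both genes were higher in 3 of 3 SCC-9 pairs, but the groups overlapped nearly completely, with log2 fold changes of 0.04 ± 0.142 and 0.05 ± 0.116.

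COL4A5 and COL4A6, the chains of the trimer of stratified epithelia, did not follow COL4A1 and COL4A2. In Detroit 562, COL4A5 measured 129, 117 and 107 CPM untreated and 97.9, 102 and 81.1 CPM after HGF, so that every treated library lay below every untreated one. Its log2 fold change of -0.33 ± 0.128 (adjusted p = 0.0675, edgeR, and 0.000819 with the replicate block) was smaller than the minimum change, so it was not called in either fit. COL4A6 measured 82.3, 77.1 and 64.9 CPM untreated and 84.7, 77.8 and 59.5 CPM after HGF, with a log2 fold change of -0.02 ± 0.135. In FaDu and SCC-9 neither gene was called, with log2 fold changes from -0.05 to 0.20. FaDu held the least COL4A6, between 6.68 and 10.1 CPM over its 6 libraries.

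The COL4A2 to COL4A1 ratio of read counts lay between 2.36 and 3.16 in all 18 libraries, although the level of COL4A1 differed 5-fold over them. The ratio averaged 2.82 in untreated and 2.63 in HGF-treated Detroit 562 libraries, 2.62 and 2.93 for FaDu, and 2.85 and 2.88 for SCC-9 (exact permutation p 0.2, 0.3 and 0.6, two-sided, where 0.1 is the smallest p that 3 against 3 allows). It was lower after HGF in 3 of 3 Detroit 562 pairs and higher in 3 of 3 FaDu pairs and 2 of 3 SCC-9 pairs. The COL4A5 to COL4A6 ratio differed far more between lines. It was 1.58 ± 0.0609 (SD, n = 3) in untreated Detroit 562 cells, 3.52 ± 0.153 in FaDu and 0.501 ± 0.0168 in SCC-9, with no overlap between lines. After HGF it was lower in 3 of 3 Detroit 562 pairs, at 1.28 ± 0.109, and higher in 3 of 3 FaDu pairs, at 4.02 ± 0.0712 (exact permutation p = 0.1 each, two-sided, the smallest this design allows). In SCC-9 it was also higher in 3 of 3 pairs, at 0.552 ± 0.0556 after HGF (exact permutation p = 0.3).

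**Figure D3:**
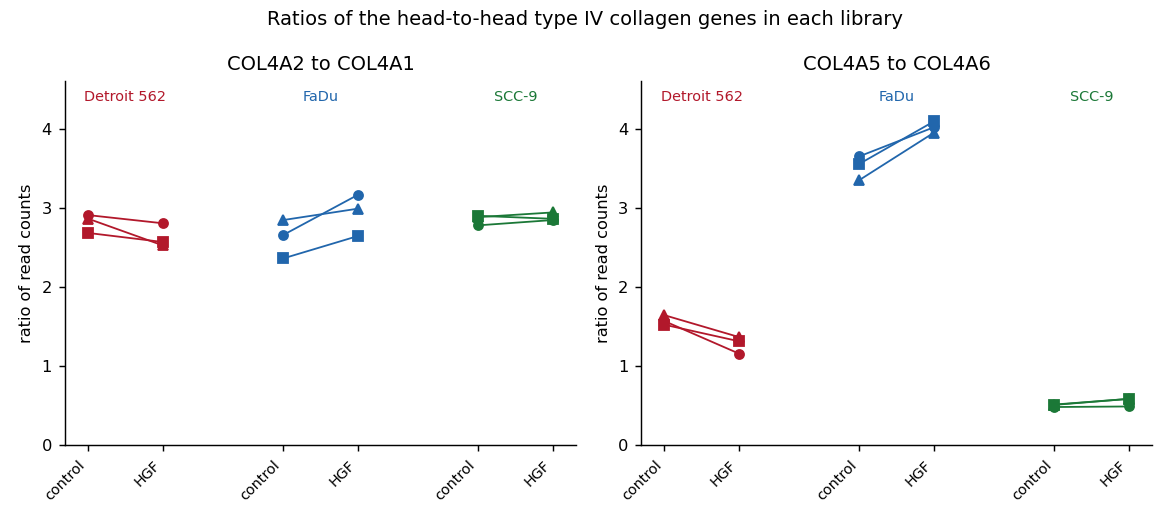
Ratio of read counts of COL4A2 to COL4A1 (left) and of COL4A5 to COL4A6 (right) in each untreated and HGF-treated library, with same-numbered libraries joined and a linear axis that starts at 0. The first ratio stays between 2.36 and 3.16 in all libraries, while the second separates the lines. Both ratios are lower after HGF in 3 of 3 Detroit 562 pairs and higher in 3 of 3 FaDu pairs.

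HSPG2 (ENSG00000142798.18, minus strand, chr1:21822245-21937297) encodes perlecan, the heparan sulfate proteoglycan of basement membranes, and had the pattern of COL4A5 in Detroit 562. It measured 186, 147 and 141 CPM untreated and 120, 124 and 92.3 CPM after HGF, without overlap. The log2 fold change of -0.50 ± 0.227 was not called without the block (adjusted p = 0.118, edgeR) and was called with it (adjusted p = 0.000924). It was also called by DESeq2 (adjusted p = 0.0909 without the fold change prior), in a fit of the Detroit 562 libraries alone (adjusted p = 0.0517), and without untreated replicate 3 (adjusted p = 0.0997). FaDu held between 7.86 and 16.4 CPM of HSPG2 and SCC-9 between 96.6 and 129 CPM, and neither line had a call.

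COL7A1 (ENSG00000114270.17, minus strand, chr3:48564073-48595267), the gene of the anchoring fibril collagen, was the only member called lower after HGF in Detroit 562 without the block. It measured 152, 131 and 156 CPM untreated and 92.2, 65.1 and 77.4 CPM after HGF. Every treated library lay below every untreated one, with pair ratios of 0.606, 0.498 and 0.497. The log2 fold change was -0.90 ± 0.283 (adjusted p = 0.0289, edgeR, and 6.48e-05 with the replicate block), a 1.87-fold reduction, and leaving out each library moved it between -1.04 and -0.78 without loss of the call. In FaDu the replicates spread more than the groups differed, from 86.7 to 179 CPM untreated and from 79.2 to 166 CPM after HGF (log2 fold change -0.29 ± 0.28, adjusted p = 0.78, edgeR). In SCC-9 they spread from 205 to 377 CPM untreated and from 233 to 332 CPM after HGF, with a log2 fold change of -0.08 ± 0.278.

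COL12A1 (ENSG00000111799.20, minus strand, chr6:75084326-75206051), the fibril-associated collagen gene, had its largest response in FaDu. It measured 58.8, 91.6 and 124 CPM in untreated FaDu replicates 1, 2 and 3 and 103, 151 and 229 CPM in the treated libraries of the same numbers. The groups overlapped because the replicates started from different levels, yet the pair ratios were close to each other at 1.75, 1.65 and 1.84. Without the block the log2 fold change of 0.82 ± 0.259 did not pass (adjusted p = 0.515, edgeR), and with the replicate block it was 0.81 ± 0.0773 (adjusted p = 4.02e-05). In Detroit 562 it measured 69.6, 57.2 and 47.3 CPM untreated and 55.4, 57.3 and 54.3 CPM after HGF (log2 fold change -0.06 ± 0.261). In SCC-9 it measured 157, 164 and 130 CPM untreated and 189, 163 and 130 CPM after HGF (log2 fold change 0.10 ± 0.257).

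TNC (ENSG00000041982.15, minus strand, chr9:115019578-115118257), the tenascin C gene, had at least 10 counts in every Detroit 562 library. Among members with that many counts, its estimated response to HGF in this line was the largest. The response of COL7A1 (log2 fold change -0.90 ± 0.283) could not be told from it in size. TNC measured 15.0, 12.9 and 11.2 CPM untreated and 28.6, 25.2 and 20.3 CPM after HGF. The groups did not overlap, the pair ratios were 1.91, 1.95 and 1.81, and the log2 fold change was 0.92 ± 0.18 (adjusted p = 0.00288, edgeR, and 1.22e-07 with the replicate block). Leaving out each library moved it between 0.80 and 1.04, with adjusted p between 0.0045 and 0.0165. In FaDu, TNC went from 3.97, 7.08 and 7.16 CPM to 6.68, 9.15 and 9.58 CPM, higher in 3 of 3 pairs with overlapping groups. Its FaDu log2 fold change was 0.48 ± 0.192 (adjusted p = 0.58, edgeR) and 0.49 ± 0.0805 with the replicate block (adjusted p = 0.00132). In SCC-9, where TNC was already at 162, 179 and 166 CPM untreated, it was at 192, 189 and 172 CPM after HGF (log2 fold change 0.12 ± 0.168, not called in either fit).

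RELN (ENSG00000189056.13, minus strand, chr7:103471784-103989516), the reelin gene, was near the lower end of what the depth could measure. In Detroit 562 it was at 0.471, 0.706 and 1.24 CPM untreated and 1.31, 1.33 and 1.46 CPM after HGF. The groups were just apart, and the log2 fold change of 0.77 ± 0.33 had an adjusted p of 0.0961 (edgeR) and of 0.0154 with the replicate block. The call was lost in 5 of 6 fits that left out a Detroit 562 library, which moved the log2 fold change between 0.49 and 1.22, with DESeq2 (adjusted p = 0.154 without the prior), without the filter on low counts (adjusted p = 0.111) and with the Detroit 562 libraries alone (adjusted p = 0.132). FaDu libraries held 0.214 to 0.677 CPM and SCC-9 libraries 0.072 to 0.196 CPM, and neither line had a call.

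SPARC (ENSG00000113140.10, minus strand, chr5:151661096-151687165), the collagen-binding glycoprotein gene, reached 10 counts in every library in SCC-9 only. Untreated SCC-9 libraries held 58.1, 48.7 and 42.0 CPM and treated ones 53.2, 45.7 and 34.0 CPM, lower in 3 of 3 pairs with overlapping groups (log2 fold change -0.16 ± 0.218, not called in either fit). The Detroit 562 libraries held 3, 3 and 1 counts untreated and 0, 1 and 0 counts after HGF. A call of lower SPARC in Detroit 562 with the replicate block (adjusted p = 0.0911, edgeR) rested on these 7 and 1 counts. FaDu held 6, 11 and 0 counts untreated and 11, 7 and 2 counts after HGF, so no difference was detectable at this depth. Both lines were lower in SPARC than SCC-9, where the untreated libraries held 6124 counts in all beside 7 in Detroit 562 and 17 in FaDu. Of the 9 fibroblast markers, COL1A1, FAP, COL1A2 and DCN were at 77.9, 42.6, 10.7 and 1.64 CPM in untreated SCC-9, while COL3A1, PDGFRB, PDGFRA, LUM and THY1 were at 0.211 CPM or less, and their part in the SPARC level was not tested.

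**Figure D4:**
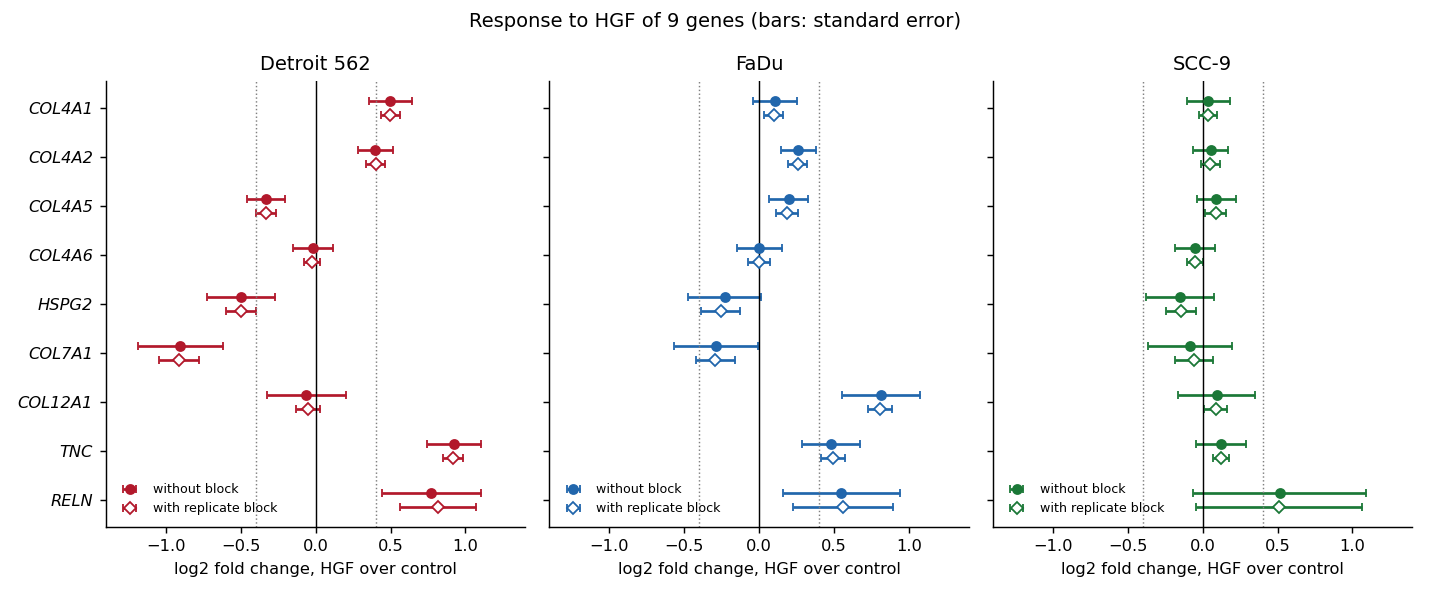
Log2 fold change of HGF-treated over untreated cells for 9 of the genes in each line, estimated without (filled circles) and with (open diamonds) a block for the replicate number, with bars of 1 standard error and dotted lines at a log2 fold change of 0.4 in either direction. SPARC is left out because it had at most 3 counts in each Detroit 562 library. The estimates are alike in both fits while the bars are mostly shorter with the block, and COL12A1 and TNC are the genes to the right of the dotted line with short bars in FaDu.

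Whether the response to HGF differed between lines was tested by the interaction of line and treatment. In this test a gene passed at an adjusted p below 0.1 alone, with no minimum log2 fold change. Without the block 0 of the 10 members passed in any of the 3 pairs of lines, beside 0.239% of all genes for Detroit 562 against FaDu, 0.924% for Detroit 562 against SCC-9 and 0% for FaDu against SCC-9 (337 genes at an unadjusted p below 0.05). TNC came closest, with a response 0.80 ± 0.246 larger on the log2 scale in Detroit 562 than in SCC-9 (adjusted p = 0.167, edgeR). DESeq2 called this difference (adjusted p = 0.0678 without the prior). With the replicate block 5 members passed for Detroit 562 against FaDu beside 19.1% of all genes, 6 for Detroit 562 against SCC-9 beside 26.9%, and 1 for FaDu against SCC-9 beside 1.32%. The TNC response was then larger in Detroit 562 than in FaDu by 0.42 ± 0.105 and than in SCC-9 by 0.80 ± 0.0855 (adjusted p 0.0187 and 5.31e-05, edgeR). COL12A1 had a larger response in FaDu than in Detroit 562 by 0.85 (adjusted p = 0.000446) and than in SCC-9 by 0.72 (adjusted p = 0.00707, edgeR).

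Among the other genes of the matrix, the full set of 6 type IV chain genes had 1 that rose in Detroit 562 (COL4A1) and 1 that fell (COL4A4), with a median of -0.17 on the log2 scale. COL4A4 fell from 5.02 ± 0.778 to 2.82 ± 0.481 CPM (SD, n = 3; log2 fold change -0.83 ± 0.254, adjusted p = 0.0255, edgeR). Of 20 other basement membrane genes tested, 3 rose and 4 fell, and their median log2 fold change was -0.06. LAMB2, a laminin beta chain, fell from 186 ± 8.67 to 108 ± 5.58 CPM (-0.79 ± 0.126, adjusted p = 0.00105, edgeR), and FREM2, NPNT and COL18A1 also fell, by 0.83, 0.67 and 0.67 on the log2 scale.

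Of 26 genes for collagen folding, secretion and crosslinking tested in Detroit 562, 2 rose and 3 fell, with a median of 0.06, and the counts of this and the other lists stand beside the 6.16% of all genes called higher and 11.7% called lower. PLOD3, a lysyl hydroxylase of collagen chains, rose from 97.8 ± 12.5 to 145 ± 16.7 CPM (log2 fold change 0.56 ± 0.132, adjusted p = 0.00697, edgeR), while LOXL4, a crosslinking lysyl oxidase, fell from 9.17 ± 1.62 to 3.51 ± 0.394 CPM (-1.38 ± 0.296, adjusted p = 0.00453). P4HB, a subunit of prolyl hydroxylase, had the highest level of this list. Among 9 relatives of tenascin, SPARC and reelin tested, 0 rose and 3 fell (SPON2, SPOCK3 and SPARCL1, by between 0.71 and 1.34 on the log2 scale), with a median of -0.34.

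Of 19 receptors for these matrix proteins tested in Detroit 562, 2 rose and 4 fell, with a median of -0.23. ITGA2 and ITGB1, which pair as a collagen-binding integrin, rose by log2 fold changes of 0.64 and 0.49 (adjusted p 0.0446 and 0.00978, edgeR). DDR1, a collagen-binding receptor tyrosine kinase, fell by 0.81 and DAG1, the dystroglycan gene, by 0.65 (adjusted p 0.00146 and 0.00612, edgeR). Of 20 other collagens tested, 1 rose and 7 fell, with a median of -0.30. COL17A1, the hemidesmosomal collagen gene and the highest of this list, rose by 0.53 (adjusted p = 0.0482), and the fibrillar collagen gene COL5A2 fell from 660 ± 202 to 311 ± 105 CPM (-1.09 ± 0.227, adjusted p = 0.00403, edgeR). COL1A1 and COL1A2, which are also 2 of the fibroblast markers, fell by 0.77 and 1.04 in the same libraries. These list counts for Detroit 562 are without the block. With the block, calls higher and lower in Detroit 562 numbered 2 and 2 of 6 type IV chains. They numbered 3 and 4 of 20 other basement membrane genes, 3 and 3 of 26 folding genes and 2 and 3 of 9 relatives. Receptors had 2 and 4 of 19 and other collagens 3 and 8 of 20, beside 7.13% higher and 14.4% lower of all genes. In FaDu and SCC-9, 0 genes of these lists were called without the block. With the block 2% of all genes were called higher in FaDu and 3.6% lower. FaDu then had 3 of 20 other basement membrane genes and 3 of 19 receptors called higher and 0 lower. It also had 2 other collagens higher and 1 lower, and 1 gene higher and 1 lower each among the folding genes and the relatives of tenascin, SPARC and reelin, while SCC-9 had 0 called in these lists.

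Likeness to each member was measured as Pearson's r of log2 CPM centered within each line over the 18 libraries, given as a description, since the libraries share treatment, line and depth. COL4A2 ranked 2nd of all genes in likeness to COL4A1 (r = 0.91), after EIF2AK4 (0.94) and before LCP1 (0.90). Those most like COL4A2 were LCP1 (0.94), HYOU1 (0.93) and COL4A1 (0.91), and TNC ranked 14th (0.86). PPIB (0.91), RAB29 (0.90) and GRINA (0.90) were most like TNC. COL4A5 and COL4A6 were less alike (r = 0.70), and COL4A6 ranked 212th in likeness to COL4A5. SEC31B (0.96), ALS2CL (0.95) and ECHDC2 (0.94) were most like COL7A1, while AKAP2, the overlapping PALM2-AKAP2 and PCDH7 (0.94, 0.94 and 0.92) were most like COL12A1. For HSPG2 they were MAP4, TRPV4 and KDM3B (0.94 each).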

How the data were processed

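The authors sequenced stranded poly(A)-selected libraries as single reads, trimmed them with cutadapt, aligned them to GRCh38.p12 with STAR (version 2.5.2b) and counted reads over GENCODE 28 gene extents on the strand of the gene with bedtools, so the deposited values are raw read counts per gene that include introns. Cells were lifted from the plate with trypsin before RNA was isolated. The study states that the experiment was repeated, but the labels do not say what the replicates of a group share, so p-values measure only the spread between these libraries, which may be partly technical. From the counts of all 18 libraries, 15475 of 19901 genes passed edgeR's (version 4.0.16) filterByExpr over the 6 groups. Counts were scaled by TMM and fitted with 1 mean per group by glmQLFit (R version 4.3.3), and p-values were adjusted by Benjamini-Hochberg over all genes tested. The count table repeats 18 pseudoautosomal genes on the Y chromosome, which stayed in the fit. 0 sample columns were left unused.

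Deviations from the group mean correlated at 0.161 to 0.563 between libraries of the same line and number. Between different numbers they correlated at -0.489 to 0.218. Deviations within a group cancel, so the lower values between different numbers are partly built in. In Detroit 562, control 1 correlated with HGF 2 at 0.218, above the 0.161 of control 2 with HGF 2. The replicate number was taken to pair libraries from these values, since the labels do not state a link. The main fit has no block because the methods of the study name none, and alternatives were a fit blocked by number inside each line, DESeq2 (version 1.42.0), other filters and size factors, a stricter threshold, each line alone and leaving out each library. Exon lengths came from GENCODE 44 and promoter sequences from RefSeq GRCh38.p14, where all 10 genes were matched. The edgeR code was tested on simulated data. Members and gene lists were chosen with earlier results of these data known. All members were named. Of each list, the genes called in an HGF comparison, at most 5 with the largest change per line, and the gene with the highest level could be named, and of the likeness measure the 3 genes most like each member. A gene of the lists that this rule would name is not reported here.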

Additional observations from a re-analysis of the deposited data

Results flagged for a closer look

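The responses of 7 genes to HGF differed between lines by the interaction test with the replicate block. In edgeR none of these differences passed without the block, and DESeq2 without it called TNC between Detroit 562 and SCC-9. The difference in log2 fold change between Detroit 562 and FaDu was 0.40 for COL4A1, -0.52 for COL4A5, -0.62 for COL7A1, -0.85 for COL12A1 and 0.42 for TNC. Between Detroit 562 and SCC-9 it was 0.46 for COL4A1, 0.35 for COL4A2, -0.42 for COL4A5, -0.85 for COL7A1, 0.80 for TNC and -0.35 for HSPG2. Between FaDu and SCC-9 it was 0.72 for COL12A1.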

How the results depend on the processing

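With the replicate block the number of members called changed from 4 to 7 for HGF in Detroit 562, from 0 to 2 for HGF in FaDu, and from 0 to 5, 6 and 1 for the differences in response of Detroit 562 against FaDu, Detroit 562 against SCC-9 and FaDu against SCC-9. The differences in response were called by adjusted p alone, with no minimum change. The block moved no other count of called members by over 1.5 times. DESeq2 called 1 member (TNC) for Detroit 562 against SCC-9, both with and without the fold change prior, where edgeR called 0. A stricter threshold (adjusted p under 0.05 and a log2 fold change of 1 or more in size) left 0 members for HGF in Detroit 562 and 5 of 8 between untreated Detroit 562 and FaDu. No direction of a called value was reversed in any alternative run, and of the counts of called members 129 alternatives stayed within 1.5 times the main count and 9 did not. Leaving out each library moved no count of called members by over 1.5 times. For single genes, 28 alternatives gained a call and 27 lost one, and 47 levels per kb moved with the longest transcript. The causes were not tested. Depth limited SPARC in Detroit 562 and FaDu and RELN in all lines.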
